A study of Mus musculus with 6 samples.

Results

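The genes described here encode the proteins of the mitochondrial ribosome, taken by symbol (Mrpl or Mrps followed by a number) from the probes of a liver array study of mice that lack Itpr2. The array carried 77 such genes of 21367 with a symbol, on 99 probes, and 76 of them were among the 17996 genes that could be tested. Mrps35 was left out because it lies beside Itpr2 on chromosome 6. By the place of the protein in the ribosome, 51 genes belonged to the large subunit and 25 to the small subunit. Mrps18a and Mrps30, named as small-subunit genes, sit in the large subunit, and Mrps36 belongs to neither.

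Livers of 3 Itpr2 knockout mice and 3 C57Bl/6 wild-type mice, 6 independent animals aged 23 months, were compared. All had been kept free of specific pathogens on a standard diet in a survival cohort, with no specific treatment. The livers were removed whole and frozen, and total RNA was hybridised in 1 colour, 1 mouse per array. The cells in which the gene was deleted and the extent of the deletion are not given in the sources used here. Each level is a log2 signal over the array's own 75th percentile, and a change is the mean of the knockout arrays minus the mean of the wild-type arrays on that scale.

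Mitochondria translate the few messages of their own genome, all of which encode subunits of the oxidative phosphorylation complexes. The ribosome that does so is built from RNA of the mitochondrial genome and from proteins encoded in the nucleus, made in the cytosol and imported. Its small subunit reads the message and its large subunit joins the amino acids and passes the chain through an exit tunnel to the inner membrane. Many of these proteins have counterparts in bacteria while others were added in the lineage of mitochondria. Itpr2 encodes a receptor that opens to inositol trisphosphate and releases calcium from the endoplasmic reticulum, and in hepatocytes it is a main such receptor.

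The Itpr2 level was 3.04, 3.07 and 3.08 on the wild-type arrays 1, 2 and 3 and 2.54, 2.38 and 2.20 on the knockout arrays (log2 change -0.69 ± 0.13 SE, limma adjusted p = 0.810). The knockout arrays all lay below the wild-type arrays, although Itpr2 did not pass the threshold. Whether its single probe lies inside the deleted part is not known here, and the level is then no check of the labels. Mrps35, the neighbour left out, had levels of 1.01, 1.01 and 1.1 in wild type and 0.25, 0.62 and 0.34 in the knockout (log2 change -0.63 ± 0.14 SE). Hepatocyte markers were well above background for 10 of 10 genes on every array. Striated muscle markers were not even across the arrays: all 12 were above background on wild-type array 1 and knockout array 3, with mean levels of 2.47 and 2.65, against 4 of 12 and mean levels of -6.11 to -5.93 on the other 4 arrays. Fat cell markers had their highest mean level, -0.28, on knockout array 3, followed by -2.43 on wild-type array 1, with the other arrays between -5.94 and -3.02 and Lep never above background. Kupffer cell markers, 9 of 9 above background on every array, had mean levels of 3.12 to 4.37 in wild type and 2.87 to 3.39 in the knockout. Slide 1 held wild-type arrays 1 and 2 and knockout array 1, and slide 2 held wild-type array 3 and knockout arrays 2 and 3. The slides were inferred from the array barcodes and are not given in the sample labels.

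Across the mitochondrial ribosomal protein genes the knockout means lay slightly below the wild-type means. Of the 76 genes tested, 60 (78.9%) had a lower mean and 16 a higher one, while over all genes tested 45.9% were lower and 54.1% higher. The median change was -0.080, a 5.40% lower signal, and the changes ran from -0.33 for Mrps6 to 0.18 for Mrpl54. Over all genes the median change was 0.022. The shift was small for each gene: the SE of a single change ran from 0.11 to 0.21, so the median change was smaller than the SE of every member.

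None of the 76 genes passed the limma threshold, with adjusted p between 0.810 and 0.999, where 0.00556% of all genes (1 of 17996) did. At an unadjusted p under 0.05 the count of members was also 0, against 6.13% of all genes (2.66% lower and 3.47% higher). The nearest was Mrps6 with an unadjusted limma p of 0.0504. All 76 genes were well above background on all 6 arrays, so no member was tested through the signal of 1 genotype alone. Mrpl21, a large-subunit protein, was the 1 gene not tested, since its single probe did not reach a level well above background on the 6 arrays. The median SD of the members within a genotype was 0.136, against 0.230 over all genes tested. The 2 sets were not matched for signal level, so the difference is not shown to be a trait of the family. In whole liver RNA, fewer cells of a type and less RNA per cell cannot be told apart.

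**Figure D1:**
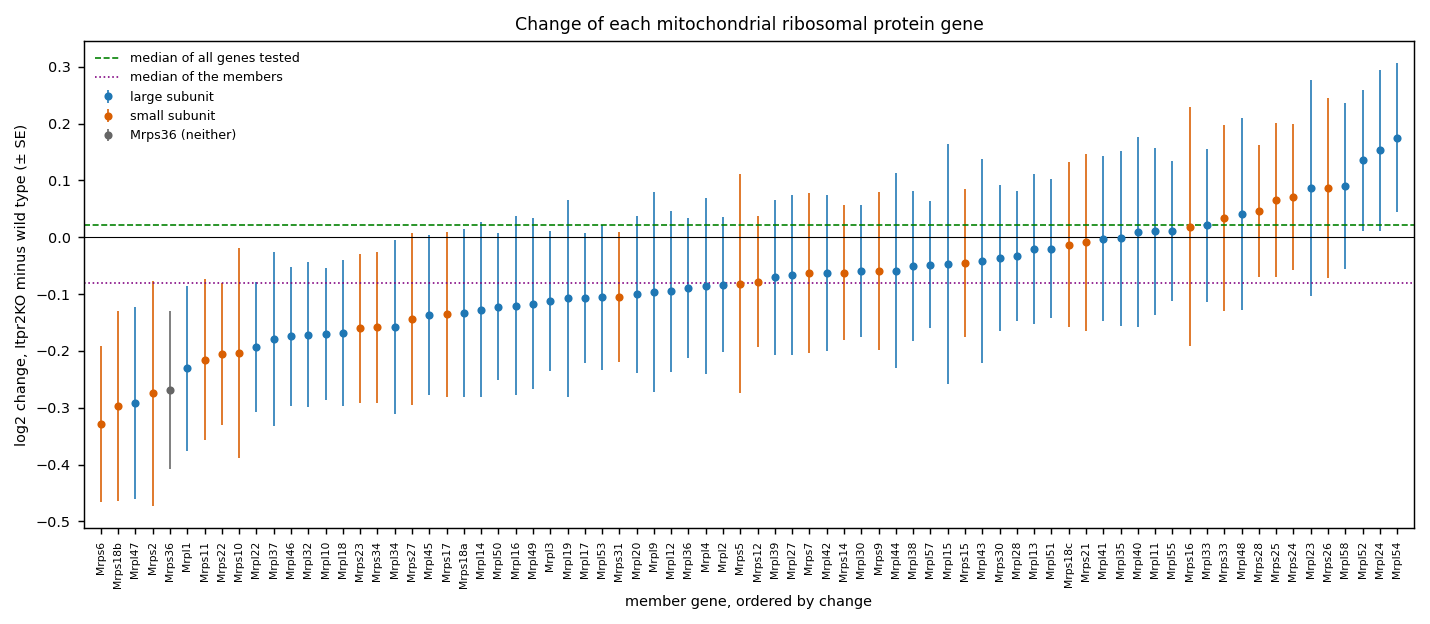
Log2 change, knockout minus wild type, with its SE for each of the 76 tested mitochondrial ribosomal protein genes, ordered by change and coloured by subunit. The points run from -0.33 to 0.18, 60 of them lie below 0, and the SE of 0.11 to 0.21 is wider than the median change of -0.080.

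The subunits had changes of similar size. The mean was lower for 40 of 50 tested genes of the large subunit (median change -0.077) and for 19 of 25 of the small subunit (median change -0.078). Proteins with a bacterial counterpart had 37 of 45 lower means (median change -0.083), and those added in mitochondria 22 of 30 (median change -0.061). No test of the difference between these groups was made.

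The arrays of the knockout were not alike. For the large subunit, the median deviation of the genes from their own mean over the 6 arrays was 0.031, 0.066 and 0.013 on wild-type arrays 1 to 3, and -0.079, 0.070 and -0.057 on knockout arrays 1 to 3. For the small subunit the same values were 0.025, 0.081 and 0.031 in wild type and -0.068, -0.014 and -0.084 in the knockout. Knockout arrays 1 and 3 were thus below every wild-type array in both subunits. Knockout array 2 was above every wild-type array in the large subunit and below every one in the small subunit. In the large subunit it was barely above wild-type array 2 (0.070 against 0.066). The SD of these medians within a genotype was 0.060 there.

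Counted gene by gene, 46 of the 76 members (60.5%) lay below all 3 wild-type arrays on knockout array 1, where 31.5% of all genes did. On knockout array 3 the count was 39 (51.3%, against 30.0% of all genes). On knockout array 2 it was 22 (28.9%, against 28.0%), close to the background, and 31 members (40.8%) lay above all wild-type arrays there, against 35.3% of all genes. In this count over all members, the lower levels were thus those of 2 of the 3 knockout mice. The median of the small subunit was below wild type on knockout array 2 as well. Knockout array 3 is also an array with high muscle and fat markers. Knockout array 1 had the highest neutrophil marker level (2.54, against -1.31 on knockout array 2 and 1.61 on array 3). The neutrophil levels of wild-type arrays 1 to 3 were 0.22, -0.50 and 0.61. Knockout array 1 also had the lowest mean level of fat cell markers (-5.94) and of T and NK cell markers (-1.98). Without the 2 arrays of high muscle markers, knockout 3 and wild type 1, the median change of the members was -0.072. That setting was chosen after seeing the data. The part of striated muscle, fat cells, neutrophils, T and NK cells and Kupffer cells in the members' levels was not tested.

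**Figure D2:**
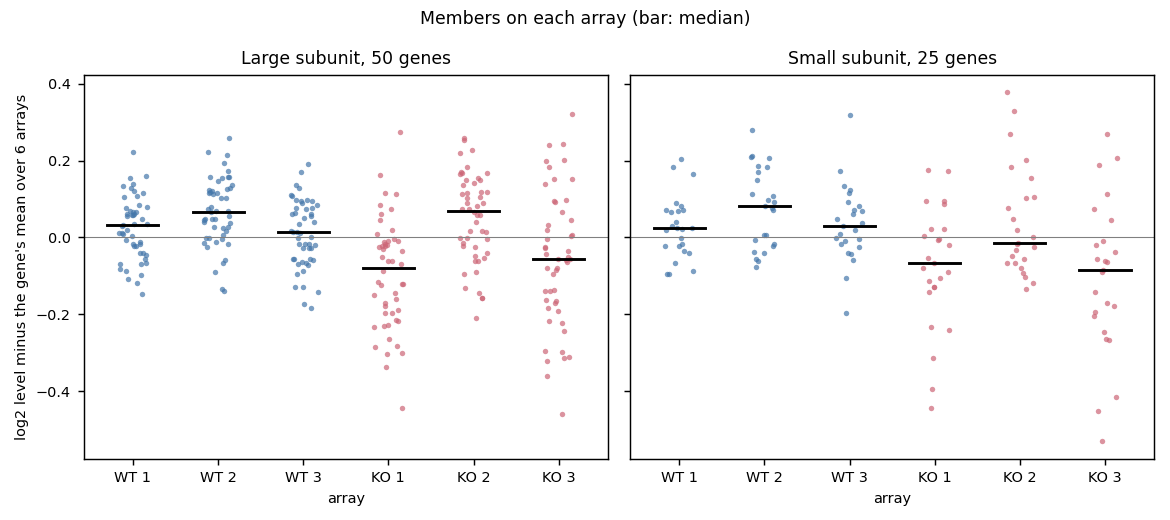
Each point is a gene's log2 level on 1 array minus its mean over the 6 arrays, for the 50 large-subunit and 25 small-subunit genes tested, and the bar is the median. The medians of knockout arrays 1 and 3 lie below those of all wild-type arrays in both panels, while knockout array 2 has a median of 0.070 in the large subunit and -0.014 in the small subunit.

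The slides differed in the size of the shift. Within slide 1 the median change of the members was -0.13, with 65 of 76 lower, and within slide 2 it was -0.040, with 49 of 76 lower. The medians were -0.13 and -0.029 for the large subunit and -0.092 and -0.051 for the small subunit. Over all genes they were -0.016 and 0.032. Slide 1 rests on knockout array 1 alone and slide 2 on wild-type array 3 alone. The count also moved with the scaling: with each array centred on its median, 70 of 76 members had a lower mean (median change -0.16) as did 10897 of 17996 genes overall (median -0.059), and with quantile normalization 63 members (-0.087) and 9056 genes (-0.0019). Without knockout array 2, 10 members in place of 16 had a higher mean.

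For 8 of the 76 members (all lower) the genotypes did not overlap, where 5.15% of all genes had no overlap and a lower mean, and for 0 members was the reverse seen, against 6.90%. The 8 were Mrps6, Mrps18b and Mrps22 of the small subunit, Mrpl1, Mrpl10, Mrpl22 and Mrpl46 of the large subunit, and Mrps36. These counts were read on the brightest probe of each gene and depended on the probe. On second probes Mrps18b was again separated and lower, as were Mrps14 and Mrpl47, and Mrps25 was separated and higher. The second probes of Mrpl10, Mrpl22 and Mrps36 overlapped by genotype.

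Mrps6, a small-subunit protein with a bacterial counterpart, had levels of 2.43, 2.53 and 2.28 in wild type and 1.94, 2.13 and 2.19 in the knockout. Its change was the largest of the members, -0.33 ± 0.14 (SE), a percent change of -20.4% in signal (limma adjusted p = 0.810, lower on 3 of 3 knockout arrays). It was -0.55 within slide 1 and -0.12 within slide 2. The closest arrays of the genotypes, wild-type array 3 and knockout array 3, were both on slide 2.

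Mrps18b is 1 of 3 proteins related to bacterial S18, which occupy different places in the ribosome. Its levels were 4.38, 4.38 and 4.21 in wild type and 4.18, 4.18 and 3.72 in the knockout, a change of -0.30 ± 0.17 (SE, limma adjusted p = 0.813). Knockout array 3 held most of the difference, and without it the change was -0.15. The second probe of Mrps18b had a change of -0.52 ± 0.20 (SE). The related Mrps18c of the small subunit, which takes the place of the bacterial protein, had levels of 3.86, 3.82 and 3.97 in wild type and 3.64, 3.98 and 3.99 in the knockout (change -0.013 ± 0.15 SE). Mrps18a, the relative in the large subunit, had levels of 2.71, 2.85 and 2.83 in wild type and 2.55, 2.90 and 2.54 in the knockout (change -0.13 ± 0.15 SE). Only Mrps18b of these 3 was separated by genotype, and the differences among the 3 changes were not tested.

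Mrps22 is a small-subunit protein without a bacterial counterpart, variants of which cause a disease of the respiratory chain in humans. Its levels were 2.28, 2.36 and 2.42 in wild type and 2.27, 2.12 and 2.06 in the knockout (change -0.21 ± 0.13 SE, limma adjusted p = 0.820). Wild-type array 1 and knockout array 1, both on slide 1, were nearly equal, and the change was -0.047 within slide 1 and -0.34 within slide 2.

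Mrpl22 lines the exit tunnel of the large subunit. Its levels were 3.92, 3.90 and 3.82 in wild type and 3.73, 3.63 and 3.70 in the knockout, a change of -0.19 ± 0.11 (SE, limma adjusted p = 0.817). Among the 8 genes it had the tightest groups, with SDs of 0.050 and 0.055 (n = 3 each), and its slides gave -0.18 and -0.16. Its second probe had a change of -0.17 ± 0.14 (SE). Mrpl10, which forms the base of the stalk that recruits translation factors, had levels of 1.73, 1.84 and 1.73 in wild type and 1.66, 1.59 and 1.54 in the knockout (change -0.17 ± 0.12 SE). The slides gave -0.13 and -0.17 for Mrpl10, so on the brightest probes of these genes the size of the change was similar on both. The second probe of Mrpl10 had a change of -0.097 ± 0.15 (SE). Its levels were 0.24, 0.52 and 0.44 in wild type and 0.47, 0.33 and 0.11 in the knockout. The genotypes overlapped on the second probes of both Mrpl10 and Mrpl22.

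Mrpl1, a protein of the mobile stalk near the exit site of transfer RNA, had levels of -0.71, -0.85 and -0.70 in wild type and -1.21, -0.85 and -0.90 in the knockout (change -0.23 ± 0.15 SE). Wild-type array 2 and knockout array 2 had the same level after rounding, so its separation rests on a gap far below its SE, and without knockout array 1 the change was -0.12. Mrpl46, a protein of the central protuberance, had levels of 1.78, 1.84 and 1.79 in wild type and 1.73, 1.67 and 1.5 in the knockout (change -0.17 ± 0.12 SE, and -0.11 without knockout array 3). Mrps36, once counted as a small-subunit protein and now known as a subunit of the alpha-ketoglutarate dehydrogenase complex of the citric acid cycle, had levels of 2.16, 2.29 and 2.13 in wild type and 1.88, 2.11 and 1.78 in the knockout (change -0.27 ± 0.14 SE, limma adjusted p = 0.810). The second probe of Mrps36 had a change of -0.090 ± 0.14 (SE).

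**Figure D3:**
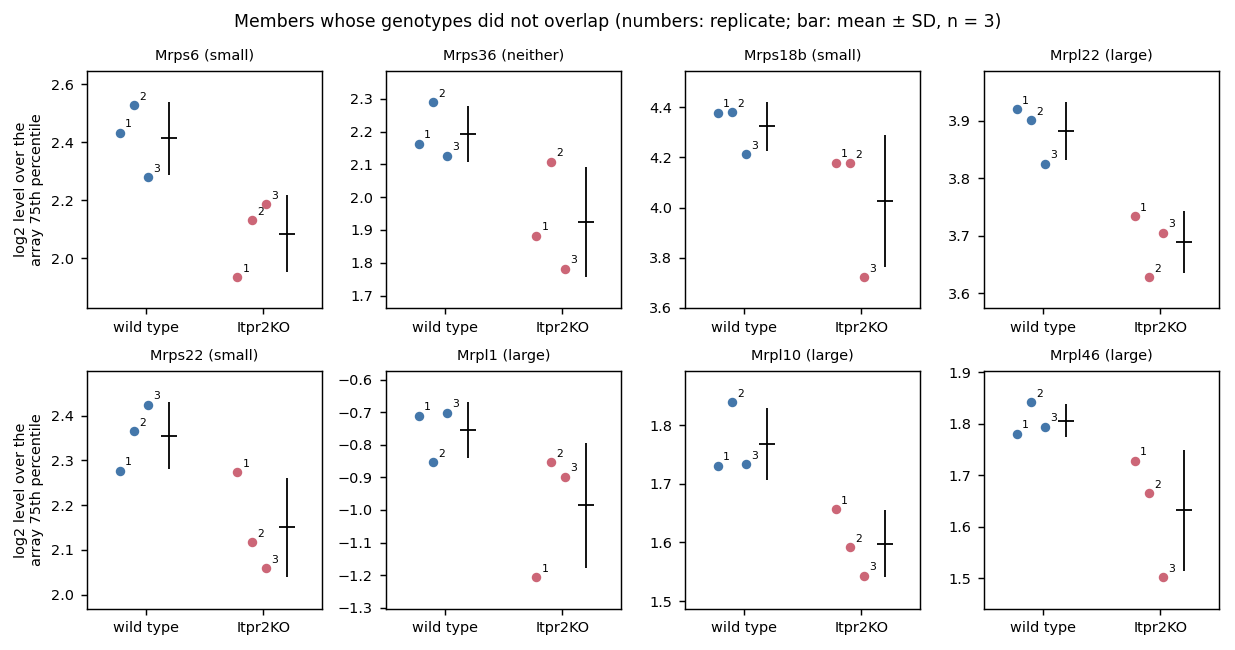
Log2 level over the array 75th percentile on each array for the 8 genes whose genotypes did not overlap, with the mean and SD (n = 3) of each genotype and the replicate number beside each point. In each panel the 3 knockout points lie below the 3 wild-type points, with hardly any gap for Mrpl1 and Mrps22. The gap is also narrow for Mrps36 (2.13 on wild-type array 3 against 2.11 on knockout array 2) and Mrps18b (4.21 on wild-type array 3 against 4.18 on knockout array 1).

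The start regions of the members were read from a RefSeq promoter table of GRCm38.p6, 250 bases before to 50 after the gene's start, for 69 of the 77 genes. The letters of motifs bound by regulators of mitochondrial genes were then searched in 75 windows on both strands. These were GCATGCGC, the core of the NRF1 motif, CCGGAAG, a core bound by ETS factors such as GABPA, and AAGATGGC for YY1. The last letters of the ETS core and the first of the YY1 letters, AAG, can overlap. At least 1 of the 3 stood in 50.7% of the members' windows, against 22.2% of windows of tested genes and 13.3% of all 32851 windows. The windows of 4 of the 8 genes without overlap are shown, as examples with the motifs named or the start of a neighbouring member. Mrpl10 also held NRF1 core letters before its start. None of the 3 motifs stood in the windows of Mrpl1, Mrps6, Mrps36 and Mrpl46, so the genes without overlap were not marked off by these letters. In Mrpl22 (chr11:58171414-58171713, plus strand), Mrps18b (chr17:35916391-35916690, minus strand) and Mrps22 (chr9:98601630-98601929, minus strand) the capitals mark NRF1 core and ETS letters on either strand. In Mrpl46 (chr7:78783040-78783339, minus strand) they mark the stretch from its start to that of Mrps11, on the other strand, the starts being 42 bases apart.
Mrpl22: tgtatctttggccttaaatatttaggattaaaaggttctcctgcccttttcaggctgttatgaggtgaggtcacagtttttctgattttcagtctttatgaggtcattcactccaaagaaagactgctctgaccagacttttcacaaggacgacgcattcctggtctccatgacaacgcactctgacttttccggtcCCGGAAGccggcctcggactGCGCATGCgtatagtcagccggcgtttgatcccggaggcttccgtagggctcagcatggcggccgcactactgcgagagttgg
Mrps18b: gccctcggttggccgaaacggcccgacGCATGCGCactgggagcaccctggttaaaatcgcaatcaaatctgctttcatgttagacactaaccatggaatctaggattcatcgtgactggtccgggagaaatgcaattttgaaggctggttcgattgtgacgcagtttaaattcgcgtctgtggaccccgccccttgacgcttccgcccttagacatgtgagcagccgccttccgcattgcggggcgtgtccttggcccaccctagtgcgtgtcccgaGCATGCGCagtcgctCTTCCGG
Mrps22: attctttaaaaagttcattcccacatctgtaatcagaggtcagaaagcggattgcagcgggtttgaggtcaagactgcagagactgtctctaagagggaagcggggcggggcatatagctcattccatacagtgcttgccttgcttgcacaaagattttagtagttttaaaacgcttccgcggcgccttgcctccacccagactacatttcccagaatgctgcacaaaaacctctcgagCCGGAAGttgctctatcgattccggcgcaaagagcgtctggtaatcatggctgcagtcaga
Mrpl46: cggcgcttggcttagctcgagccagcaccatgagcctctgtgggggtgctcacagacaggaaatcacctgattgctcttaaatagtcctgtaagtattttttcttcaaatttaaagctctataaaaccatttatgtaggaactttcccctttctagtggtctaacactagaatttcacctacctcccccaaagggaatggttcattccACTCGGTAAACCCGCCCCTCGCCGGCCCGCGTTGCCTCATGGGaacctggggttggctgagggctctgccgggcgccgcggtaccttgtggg
The Mrpl22 window held ETS letters beginning 53 bases before the start and NRF1 core letters beginning 33 bases before it. The Mrps18b window held NRF1 core letters at both ends and ETS letters after the start, and the Mrps22 window ETS letters beginning 11 bases before the start.

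Motif by motif, ETS letters stood in 34.7% of the members' windows (15.6% of windows of tested genes), YY1 letters in 16% (3.99%) and the NRF1 core in 11% (4.61%). For other elements the shares were close to those of tested genes: CACGTG stood in 9.33% (9.55%), TATAAA in 6.67% (8.57%) and CCAAT in 40% (37.2%). The 8 tested members with an NRF1 core had a median change of -0.14, with 7 lower, and the 60 without it -0.072, with 47 lower. The 25 with ETS letters had a median change of -0.066 and the 43 without -0.089, and for YY1 letters the values were -0.10 for 12 genes and -0.076 for 56. A match of letters is a description and not a site of binding.

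Many members share a start region with another gene. A gene on the other strand began within 1000 bases upstream for 26 of the 69 members (37.7%), against 18% of tested genes with a window. In 21 pairs of a member with a gene outside the family both were tested, and the partner had a lower mean in 11, with a median change of -0.013. Mrpl46 and Mrps11, the pair made of 2 members, had changes of -0.17 and -0.22. Mrps11, which lines the path of the message through the small subunit, had levels of 0.36, 0.59 and 0.52 in wild type and 0.28, 0.43 and 0.12 in the knockout. Both genes of this pair had their lowest level on knockout array 3. Of the 69 members with a window, the 5 on chromosome 6, the chromosome of Itpr2, had a median change of -0.0021. Of these 3 of 5 were lower, and none stood among the genes separated on their brightest probe. Members without a window were not placed on a chromosome, so the count for chromosome 6 may be incomplete.

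By role in the large subunit, the genes around the peptidyl transferase centre, where the peptide bond is made, had 5 of 5 lower means (median change -0.086). Mrpl3 among them had levels of 2.55, 2.54 and 2.55 in wild type and 2.41, 2.58 and 2.33 in the knockout (change -0.11 ± 0.12 SE). Its wild-type arrays were nearly equal while its knockout arrays spread on both sides of them.

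The exit tunnel genes had 6 of 8 lower means (median change -0.088). Mrpl47, at the tunnel's end, had levels of 2.01, 1.82 and 1.98 in wild type and 1.35, 1.73 and 1.86 in the knockout, the largest change of the large subunit at -0.29 ± 0.17 (SE). Most of it came from knockout array 1, and without that array the change was -0.14. Mrpl45, which anchors the ribosome to the inner membrane, had levels of 2.69, 2.80 and 2.76 in wild type and 2.49, 2.83 and 2.52 in the knockout (change -0.14 ± 0.14 SE). Mrpl44, which carries a fold related to ribonuclease III, had levels of 1.61, 1.63 and 1.58 in wild type and 1.56, 1.84 and 1.26 in the knockout (change -0.059 ± 0.17 SE), and without knockout array 3 its change was 0.088. The wild-type levels of Mrpl44 lay close together, and its knockout levels lay on both sides of them.

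In the stalk, which recruits translation factors, Mrpl10 is described above. Mrpl11 had a change of 0.011 ± 0.15 (SE) and Mrpl12, of which several copies form the flexible part, one of -0.095 ± 0.14. The changes of Mrpl11 and Mrpl12 differed in sign between the slides, with -0.25 and -0.33 within slide 1 and 0.24 and 0.10 within slide 2. The central protuberance, which faces the small subunit, had 4 of 7 lower means (median change -0.037). Mrpl58, a peptidyl-tRNA hydrolase built into the ribosome, had levels of 3.79, 3.79 and 3.71 in wild type and 3.61, 3.99 and 3.96 in the knockout (change 0.090 ± 0.15 SE), with slide values of -0.18 and 0.26. Mrps30, a large-subunit protein there despite its name, had a change of -0.037 ± 0.13 (SE).

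Mrpl32, a protein that is cut by a protease of the inner membrane before it joins the large subunit, had levels of 1.83, 1.70 and 1.83 in wild type and 1.55, 1.76 and 1.53 in the knockout (change -0.17 ± 0.13 SE). Knockout arrays 1 and 3 lay below its wild-type levels and knockout array 2 among them. Mrpl54, added to the large subunit in mitochondria, was the member with the largest change upward, with levels of 2.93, 3.02 and 3.03 in wild type and 3.17, 3.02 and 3.32 in the knockout (change 0.18 ± 0.13 SE). Its genotypes overlapped at knockout array 2. Mrpl57 varied least of all members over the 6 arrays, with a range from 4.86 to 4.99.

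In the small subunit, the genes of the decoding centre and the path of the message had 7 of 8 lower means (median change -0.071). Mrps2, on that path, varied most of all members, with levels of 1.21, 1.33 and 1.25 in wild type and 1.30, 1.07 and 0.60 in the knockout (change -0.27 ± 0.20 SE). Knockout array 3 set this value, and without it the change was -0.079. Mrps12, at the decoding centre, had levels of 4.62, 4.52 and 4.63 in wild type and 4.55, 4.46 and 4.53 in the knockout (change -0.078 ± 0.12 SE), a narrow spread in both genotypes. Mrps7, which binds the ribosomal RNA early in assembly, had a change of -0.063 ± 0.14 (SE).

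Of small-subunit proteins without a bacterial counterpart, Mrps23 had levels of 3.29, 3.31 and 3.02 in wild type and 3.04, 3.06 and 3.04 in the knockout (change -0.16 ± 0.13 SE), and its slides gave -0.26 and 0.031. Its wild-type array 3, on slide 2, had the lowest level of the 6. Mrps34 had levels of 4.62, 4.66 and 4.61 in wild type and 4.64, 4.47 and 4.31 in the knockout (change -0.16 ± 0.13 SE), and its slides gave -0.0013 and -0.22. Mrps23 and Mrps34 had the same size of change by way of different slides. Mrps16, which has a bacterial counterpart, had levels of 4.74, 4.62 and 4.61 in wild type and 4.27, 5.04 and 4.71 in the knockout (change 0.019 ± 0.21 SE). The knockout levels of Mrps16 spanned the whole range of wild type.

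Second probes gave a repeat of the measurement on the same RNA for 22 members. The change had the same sign on both probes for 18 members, both were lower for 17, and the second probe was lower for 20, with a median change of -0.13. The median correlation of the probe pairs over the 6 arrays was 0.80, given as a description, since the pairs share their arrays. The sign differed for Mrpl27 (-0.066 and 0.0038), Mrpl40 (0.0097 and -0.0022), Mrps26 (0.087 and -0.17) and Mrps33 (0.034 and -0.31), all changes within their SE apart from the second probe of Mrps33 (SE 0.23). The widest gap between probes, 0.515, was that of Mrps25, named after its values were seen, whose second probe had a change of 0.58 ± 0.20 (SE) against 0.066 ± 0.14.

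The genes that work with the mitochondrial ribosome had medians below 0 in each list but one, the nuclear regulators, and 0 genes of these lists passed the adjusted limma threshold. The other subunits of the ribosome that carry different names, Dap3, Ptcd3, Chchd1, Aurkaip1 and Gadd45gip1, had 3 of 5 lower means and a median change of -0.0048, from -0.082 for Ptcd3 to 0.15 for Dap3. Mitochondrial translation factors had 10 of 15 lower means (median change -0.12). Tsfm, the exchange factor of the elongation factor Tu, had a change of -0.39 ± 0.21 (SE), Taco1, an activator of the translation of a cytochrome oxidase message, one of -0.28 ± 0.18, and Pdf, which removes the formyl group of new chains, one of -0.20 ± 0.13. Pdf was separated by genotype, with levels of 0.998, 1.26 and 1.19 in wild type and 0.973, 0.996 and 0.867 in the knockout, by a narrow margin. Of the 14 translation factors without a missing value 1 was separated and lower, against 5.15% of all genes.

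Assembly factors of the ribosome had 15 of 24 lower means (median change -0.076), and 1 had an unadjusted limma p under 0.05, where 2.66% of all genes did with a lower mean. It was Mrm2, which methylates the large ribosomal RNA, with levels of -1.77, -1.50 and -1.57 in wild type and -1.84, -1.93 and -2.27 in the knockout (change -0.40 ± 0.16 SE, limma adjusted p = 0.810). Mettl17, with a change of -0.25 ± 0.16 (SE), and Mterf4, which helps to join the subunits, with 0.22 ± 0.15, followed by p. The mitochondrial aminoacyl-tRNA enzymes had 12 of 19 lower means (median change -0.059), with 1 at an unadjusted limma p under the same limit. It was Ears2, which charges glutamate, with a change of -0.36 ± 0.14 (SE). Qrsl1, a subunit of the enzyme that completes glutaminyl-tRNA, had levels of -1.37, -0.999 and -1.34 in wild type and -1.52, -1.74 and -2.64 in the knockout, and Aars2, the alanine enzyme, a change of -0.22 ± 0.11 (SE). Mrm2, Ears2, Qrsl1 and Aars2, named for a small p, were each lower on 3 of 3 knockout arrays than on all wild-type arrays. Such a separation held for 1 of 24 assembly factors and 4 of 19 of the enzymes, against 5.15% of all genes. The reverse was seen for 1 of 24 assembly factors, against 6.90% of all genes.

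Genes of mitochondrial transcription and RNA processing had 12 of 16 lower means (median change -0.064). Tfam, which packages the mitochondrial genome, had a change of -0.16 ± 0.16 (SE), and Polrmt, the mitochondrial RNA polymerase, one of -0.016 ± 0.13. Ssbp1, which binds single-stranded mitochondrial DNA, had one of -0.23 ± 0.14, with Prorp, a nuclease of transfer RNA, at -0.14 ± 0.16. The nuclear regulators of mitochondrial genes leaned the other way, with 2 of 8 lower means and a median change of 0.21. Nrf1 had levels of -1.18, -0.62 and -0.90 in wild type and -0.74, -0.086 and -0.35 in the knockout (change 0.51 ± 0.22 SE, limma adjusted p = 0.810). Its genotypes overlapped at wild-type array 2 and knockout array 1. Ppargc1a had a change of 0.26 ± 0.16 (SE), Gabpa 0.24 ± 0.14, Yy1 0.24 ± 0.13 and Esrra -0.16 ± 0.24. Of the named regulators Gabpa was higher on all 3 knockout arrays, with wild-type array 3 and knockout array 3 both at 0.25 after rounding. Among the 8 regulators 1 was separated and higher, against 6.90% of all genes.

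The values of 2 larger families that share a product or a pathway with the mitochondrial ribosome moved with the scaling. Subunits of oxidative phosphorylation encoded in the nucleus had 44 of 83 lower means and a median change of -0.0039, with medians of -0.27 within slide 1 and 0.18 within slide 2. With quantile normalization 68 of 83 were lower (median -0.083, close to the members' -0.087), and with median centring 71 of 83 (median -0.087, against -0.16). Among the subunits with the smallest p were Ndufa4l2, a relative of a cytochrome oxidase subunit, with a change of 0.59 ± 0.30 (SE), and Ndufb3, with -0.28 ± 0.18. Cytosolic ribosomal proteins had 3 of 79 lower means and a median change of 0.16, with Rplp0, a stalk protein, at 0.30 ± 0.14 (SE), Rpl27a at 0.29 ± 0.16 and Rps16 at 0.28 ± 0.17. That direction turned within slide 1, where 58 of 79 had a lower mean (median -0.060), while slide 2 gave a median of 0.29. The median over all arrays was smaller with quantile normalization (median 0.047, 18 lower) and with median centring (0.073, 12 lower). The mitochondrial ribosomal proteins kept a median below 0 on both slides. No test compared these families with each other.

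**Figure D4:**
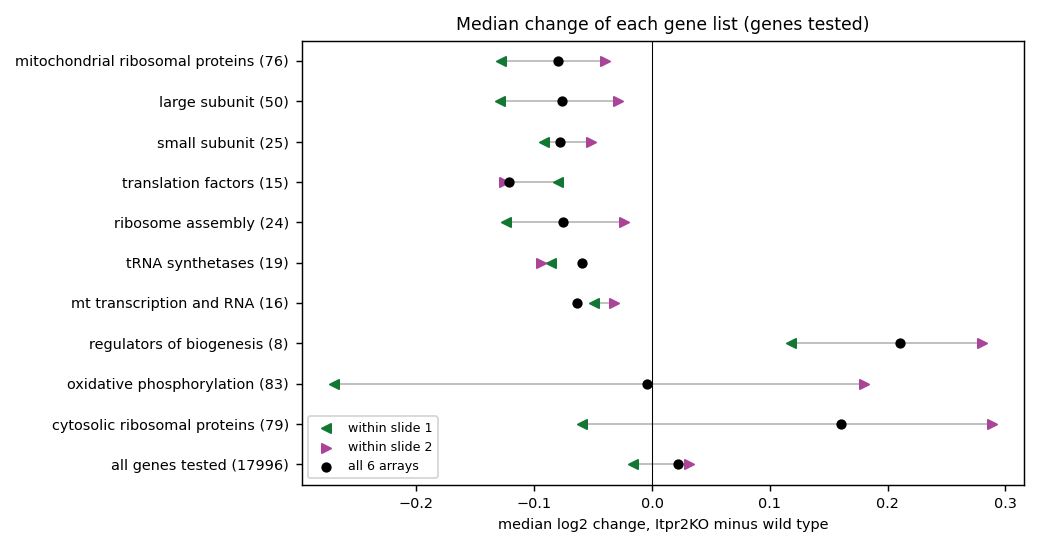
Median log2 change, knockout minus wild type, of each gene list over all 6 arrays and within each slide, with the number of genes tested. The mitochondrial ribosomal proteins lie at -0.080 over all arrays, -0.13 within slide 1 and -0.040 within slide 2, while oxidative phosphorylation (-0.27 and 0.18) and cytosolic ribosomal proteins (-0.060 and 0.29) have a median of either sign on the slides. The lists of translation factors, ribosome assembly, tRNA synthetases and mitochondrial transcription also lie below 0 on both slides.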

How the data were processed

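Frozen livers of 3 wild-type and 3 Itpr2 knockout mice gave the total RNA, and its Cy3-labelled copies were read on Agilent arrays in 1 colour, per the labels' protocols. The labels give independent mice, so replicates are animals. Intensity values in the deposited scanner tables came from Feature Extraction 11.5.1.1 per the file headers (10.7.3.1 per the submitters' processing notes), which had removed the background. The authors also deposited log2 values for 20644 probes, which followed 75th-percentile scaling followed by centring on each probe's median. Column medians there were 0.00207, -0.0094, 0.00497, -0.0127, 0.0106 and 0.00617 for wild type 1 to 3 and knockout 1 to 3, and higher values meant more signal. Its columns of knockouts 2 and 3 matched the scanner tables of knockouts 3 and 2 (r = 0.999 each, against -0.080 and -0.076 with their own). Arrays are named here by their scanner tables, and the genotype comparison is untouched.

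From each array's 44397 spots, 1377 controls and, in all, 818 outlier spots were dropped, spots of a probe were averaged, and log2 signals were set against the array's 75th percentile. The log2 percentile itself was 7.98 for knockout 3 and 8.38 to 8.47 for the others. Between 57.6% and 59.5% of probes were well above background, and 0 spots were saturated. Precision is limited by how few arrays there are. Symbols came through accessions from a gene table of GRCm38.p6. They named 28330 of 39429 probes with 1 symbol, 0 with several, and left 11099 without. The array design names mm9, so coordinates are printed for the RefSeq promoter windows only, which are of GRCm38.p6.

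Probes had to be above background on 3 arrays of either genotype, and the brightest probe stood for a gene. Genotypes were compared with limma 3.58.1 in R 4.3.3 (lmFit, eBayes, two-sided), Benjamini-Hochberg adjustment over 17996 genes and a threshold of 0.05. Of genes given a simulated log2 change, 0% were recovered at 0.5, 26% at 1, 78% at 2 and 92% at 3. The members' changes, from -0.33 to 0.18, were all smaller in size than 0.5. The absence of members past the threshold is therefore no evidence that their levels were equal. Genotype overlap was read on the 17880 genes without a missing value. The alternatives were median centring, quantile normalization, normexp with an offset of 50, the authors' values, other probe rules and filters, outlier spots kept, slide and replicate blocks, array weights and each array left out. Normexp used the median signal, since no mean signal column was at hand.

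The members and lists were chosen with earlier results of these data known. Members are named that had the 7 smallest p in their subunit, genotypes without overlap, probes of unlike sign, the most or least variation, no signal above background, or a listed role. Other genes are Itpr2, Mrps35, the 3 of each list with the smallest p and 6 listed regulators. Of the genes this rule takes, 1 is not reported here.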

Additional observations from a re-analysis of the deposited data

How the results depend on the processing

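The members' medians lay below 0 under every alternative run, from -0.16 to -0.040 for all members, -0.16 to -0.029 for the large subunit and -0.16 to -0.051 for the small subunit. With limma, 0 members passed the threshold in each of the 18 tested alternatives (smallest adjusted p = 0.526, and at most 4 with an unadjusted p under 0.05). Median centring moved the medians to -0.16 for all members, the large and the small subunit, and the members with a higher mean from 16 to 6. The mean of a gene's probes moved the small-subunit median to -0.12, and within slide 2 the members with a higher mean numbered 27. With 1 array left out, the small-subunit median ran from -0.15 (without knockout 2) to -0.057, and the members with a higher mean numbered 10 to 24. Of 17996 genes 1 passed. Without 1 array 0 to 2 passed, with 2 without knockout 3, 1 without wild type 3 and 0 without any of the other 4. The count was 0 with normexp, with all arrays above background, with the replicate block, and without wild type 1 and knockout 3 together, a setting chosen after seeing the data.

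The labels give no pairing of mice by replicate number. Slide or muscle marker level differed between same-numbered arrays, so the correlations given next cannot settle whether mice were paired. Deviations of same-numbered arrays correlated at -0.19, 0.042 and -0.28 across 17880 genes, and the replicate block gave 0 members and 0 genes past the threshold, with a members' median of -0.080.

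Of 32 members named for their values or role, 22 kept their sign in the alternatives with a test, values within a slide aside, and 0 passed under any alternative. Median centring gave Mrpl11 -0.071, Mrpl40 -0.071, Mrps16 -0.062 and Mrps33 -0.047. Quantile normalization gave Mrpl11 -0.010 and Mrps16 -0.0031. Normexp gave Mrpl11 -0.058, Mrpl40 -0.0025, Mrps16 -0.043, Mrps30 0.040 and Mrps33 -0.052. The mean of a gene's probes gave Mrps26 -0.041 and Mrps33 -0.14, the slide block Mrpl11 -0.0090, Mrpl40 -0.067 and Mrps16 -0.070, and array weights Mrpl44 0.014. Without wild type 1 and knockout 3, Mrpl40 had -0.023, Mrpl44 0.090, Mrps33 -0.050 and Mrps7 0.021, while Mrps18c kept its sign at -0.084. Over the omission of 1 array, changes ran from -0.056 to 0.11 for Mrpl11, -0.13 to 0.034 for Mrpl27, -0.080 to 0.15 for Mrpl40, -0.20 to 0.088 for Mrpl44, -0.17 to 0.22 for Mrps16, -0.072 to 0.10 for Mrps18c, -0.055 to 0.18 for Mrps26, -0.10 to 0.029 for Mrps30, -0.092 to 0.099 for Mrps33 and -0.17 to 0.023 for Mrps7. The cause of these turns was not tested. With 3 mice per genotype and an SE of at least 0.11 per gene, a shift as small as the members' median could not be shown for any single gene.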

Other observations

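Over the 6 arrays, the mean deviation of the 76 members was 0.026, 0.073 and 0.018 on wild-type arrays 1 to 3 and -0.090, 0.048 and -0.075 on knockout arrays 1 to 3. Among 13503 other genes with a symbol, the 5 whose levels followed this pattern most closely were Miga2, with a correlation of 0.990, Mme (0.990), Tfcp2l1 (0.987), Mycbp (0.985) and Phf19 (0.984), given as a description over 6 arrays that share their labels and slides. Miga2 encodes a protein of the mitochondrial outer membrane that promotes fusion. Its levels were 3.33, 3.75 and 3.24 in wild type and 2.42, 3.58 and 2.71 in the knockout, so that knockout array 2 lay among the wild-type arrays and the other knockout arrays below them. Mme, which encodes the peptidase neprilysin, had levels of -0.43, -0.22 and -0.67 in wild type and -1.64, -0.24 and -1.54 in the knockout. The changes of these 5 genes ran from -0.70 for Mme to -0.11 for Mycbp, and none passed the limma threshold (adjusted p from 0.810 to 0.877).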
